A study of Arabidopsis thaliana with 24 samples.

Results

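The ETHYLENE RESPONSE FACTOR (ERF) genes described here are 9 members of groups IX and X of the AP2/ERF family of Arabidopsis, chosen by name from a list of gene identifiers. They are ERF1A (AT4G17500), ERF2 (AT5G47220) and ERF13 (AT2G44840) of group IXa, ERF5 (AT5G47230), ERF6 (AT4G17490), ERF104 (AT5G61600) and ERF105 (AT5G51190) of group IXb, ERF1 (AT3G23240) of group IXc, and RRTF1 (AT4G34410, also called ERF109) of group X. All 9 were measured in both series, among 11747 genes in all. The plants were whole 2-week old seedlings of *Ch1*, a Col-0 mutant without chlorophyll b, which all groups carried. The seedlings were moved from their medium to water before the light treatment, and the RNA extraction methods, which stand with those for qRT-PCR, describe a biological replicate as a pool of 7 whole seedlings. They received low light (LL, 30 µE) or high light (HL, 1000 µE) for 0, 1, 2 or 4 h, which makes 8 groups of 3 libraries (24 libraries). The paper gives the growth light as white light of an intensity between LL and HL. LL was thus a step down from the growth light, and HL a step up. No wild type library and no set held at 0 h conditions for the later times were analysed here. The time in water, the hour of sampling and the light exposure therefore cannot be told apart.

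ERF proteins are transcription factors with a single AP2 DNA-binding domain. Group IX and X members are mostly activators, and many bind the GCC box, a short element in the promoters of ethylene and jasmonate responsive defence genes. Ethylene keeps the factors EIN3 and EIL1 from being degraded, EIN3 activates ERF1, and ERF1 in turn activates defence genes such as basic chitinase. ERF6 is a substrate of the MAP kinases MPK3 and MPK6, and ERF104 of MPK6. Several of these transcripts are short-lived and are induced by touch, wounding, cold or reactive oxygen species.

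MARS-seq reads the 3' end of each transcript, so the values count transcripts of one gene across samples, and levels of different genes are not compared. Totals were 1163870 to 2061753 counts in the 12 LL libraries and 1617051 to 2070855 in the 12 HL libraries. CPM is given after TMM scaling of all 24 libraries together. The shoot markers RBCS1A, RCA and CA1 and the root markers COBL9, EXPA7 and TIP2;3 were detected in all 8 groups. In whole seedlings, fewer cells of a type and less RNA per cell cannot be told apart. The same methods call the replicates biological, but neither they nor the labels say whether the 3 came from separate plates or days, so the p-values measure the spread among these libraries. Changes are log2 fold changes ± SE from edgeR's quasi-likelihood test, and a gene is called, or said to have risen or fallen, where p adjusted over all genes was under 0.05 and the change at least 2-fold. Intervals of count ratios are 95% intervals for counting error only.

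The genes lie on chromosomes 2 to 5 of TAIR10.1, and each has 1 exon. RRTF1 lies at chr4:16451876-16453260 on the plus strand and ERF13 at chr2:18495215-18496327 on the plus strand. ERF1 lies at chr3:8295617-8296604 on the plus strand, ERF104 at chr5:24766344-24767732 on the minus strand and ERF105 at chr5:20800473-20801437 on the minus strand. The other 4 genes form 2 pairs of neighbours that point away from each other. ERF6 (chr4:9752824-9754161, minus strand) and ERF1A (chr4:9759203-9760391, plus strand) have 5041 bases between their starts and no annotated gene in between. ERF2 (chr5:19171643-19172956, minus strand) and ERF5 (chr5:19179881-19181182, plus strand) have 6924 bases between their starts, with 1 gene between them. No 2 of the 9 transcripts share an exact run of more than 31 bases.

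Promoters were read as the 250 bases before each annotated start. The promoters of RRTF1, ERF1A and ERF2 are shown because they are the 3 of 9 that hold the G-box CACGTG, which 6.49% of 27443 promoters of the same length hold. Capitals mark the G-box and the W-box core TTGAC or its reverse complement.
RRTF1, chr4:16451626-16451875, plus strand: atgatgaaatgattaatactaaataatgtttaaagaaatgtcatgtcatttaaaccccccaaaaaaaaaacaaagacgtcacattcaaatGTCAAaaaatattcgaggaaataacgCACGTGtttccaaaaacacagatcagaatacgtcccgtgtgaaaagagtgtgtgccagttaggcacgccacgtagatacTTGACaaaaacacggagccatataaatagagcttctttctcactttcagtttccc
ERF1A, chr4:9758953-9759202, plus strand: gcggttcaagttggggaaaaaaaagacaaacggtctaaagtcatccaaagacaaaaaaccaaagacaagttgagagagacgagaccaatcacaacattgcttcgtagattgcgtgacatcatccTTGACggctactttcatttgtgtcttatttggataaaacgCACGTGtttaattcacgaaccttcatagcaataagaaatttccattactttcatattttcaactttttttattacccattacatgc
ERF2, chr5:19172957-19173206, minus strand: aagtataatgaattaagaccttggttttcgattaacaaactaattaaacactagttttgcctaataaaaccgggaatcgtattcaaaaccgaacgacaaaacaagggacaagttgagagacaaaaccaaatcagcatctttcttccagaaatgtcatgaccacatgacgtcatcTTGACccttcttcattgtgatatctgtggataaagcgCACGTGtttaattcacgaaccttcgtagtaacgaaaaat
The G-box starts 134 bases before the start of RRTF1, 86 before that of ERF1A and 39 before that of ERF2. In ERF1A and ERF2 it lies in an identical run of 26 bases, cgCACGTGtttaattcacgaaccttc, the longest run of that pair. The longest run of any other of the 36 pairs of promoters was 13 bases. Only the longest run of each pair was recorded, so further runs shared by ERF1A and ERF2 are not given. Searched on both strands, the W-box core was in 6 of 9 promoters (those of ERF1A, ERF2, ERF13, ERF5, ERF105 and RRTF1), against 44.9% of all promoters. The dehydration element core CCGAC was in that of ERF5 (12% of all), and the GCC box GCCGCC (1.87%) and the element CGCGTT (2.59%) were in none of the 9. These matches are descriptions of the sequence in this window.

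RRTF1 and ERF13 were nearly lost from the libraries within 1 h in both light levels. RRTF1 is a redox-responsive factor that jasmonate induces and that acts on auxin synthesis in roots. Its counts in the 3 LL libraries were 69, 65 and 18 at 0 h, 4, 2 and 2 at 1 h, 0, 3 and 2 at 2 h, then 2, 3 and 1 at 4 h. In HL they were 109, 166 and 97 at 0 h, 3, 5 and 7 at 1 h, 1, 1 and 2 at 2 h, then 0, 1 and 2 at 4 h. No library of a later time reached the lowest 0 h library in either series. The mean level went from 31.1 ± 14.8 CPM (SD, n = 3) at LL 0 h to 1.77 ± 0.195 at LL 1 h, and from 79.6 ± 36.2 at HL 0 h to 2.63 ± 0.836 at HL 1 h. By edgeR's quasi-likelihood test RRTF1 fell by 4.08 ± 0.50 (SE) on the log2 scale at LL 1 h (adjusted p = 1.15e-05) and fell by 4.86 ± 0.37 at HL 1 h (adjusted p = 2.48e-08). At HL 4 h, with 3 counts against 372, the level at 0 h was 137 times that at 4 h, with an interval from 46.4 to 666. At LL 4 h, with 6 counts against 152, this ratio was 30.7 (13.8 to 84.9).

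ERF13, a group IXa factor with roles in wounding and lateral root growth, had 27, 51 and 18 counts at LL 0 h, 8, 2 and 3 at 1 h, 4, 6 and 3 at 2 h, then 0, 2 and 2 at 4 h. In HL its counts were 57, 107 and 90 at 0 h, 4, 5 and 8 at 1 h, 12, 4 and 4 at 2 h, then 2, 4 and 6 at 4 h. As for RRTF1, the 0 h libraries stood apart from all later ones. ERF13 fell by 2.77 ± 0.45 at LL 1 h (adjusted p = 0.000205) and by 4.12 ± 0.40 at HL 1 h (adjusted p = 4.92e-07). At 4 h it fell by 4.69 ± 0.54 in LL (adjusted p = 2.55e-06) and fell by 4.54 ± 0.43 in HL (adjusted p = 1.02e-07). The 4 counts at LL 4 h against 96 at 0 h give a 0 h level 29.1 times as high (11 to 109).

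**Figure D1:**
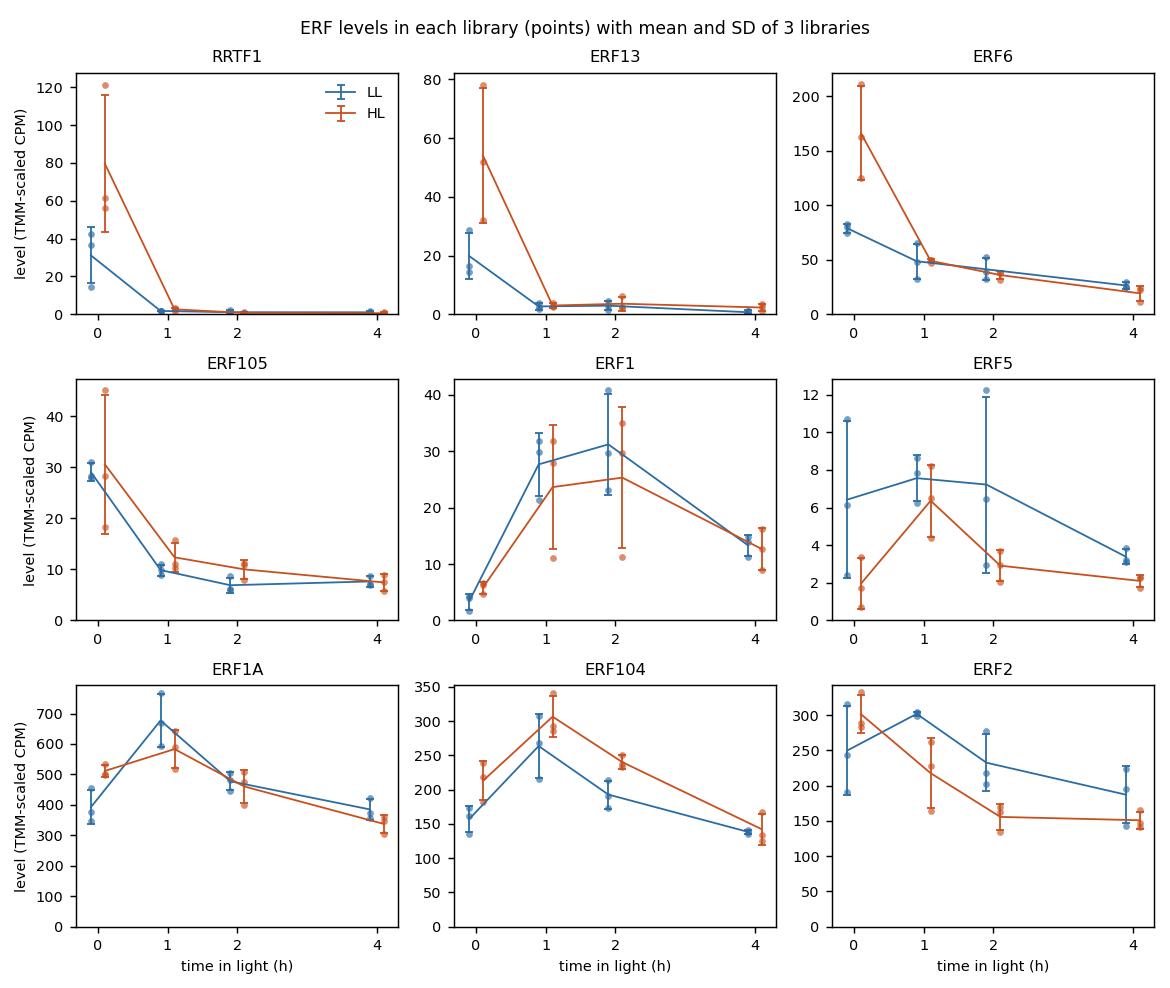
Level of each of the 9 ERF genes (TMM-scaled CPM, linear axis from 0) against time in light (h), with 1 point per library, lines through the means of 3 libraries and bars for the SD, LL in blue and HL in orange. RRTF1 and ERF13 are highest at 0 h (RRTF1 means of 31.1 and 79.6 CPM) and near 0 afterwards, while ERF1 is lowest at 0 h.

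ERF6 and ERF105 of group IXb fell as well, less steeply. ERF6, which restricts leaf growth under osmotic stress, had 135, 132 and 100 counts at LL 0 h, 67, 54 and 83 at 1 h, 77, 44 and 72 at 2 h, then 45, 58 and 46 at 4 h. In HL it had 287, 289 and 217 counts at 0 h, 81, 93 and 101 at 1 h, 72, 64 and 62 at 2 h, then 20, 42 and 38 at 4 h. In LL the mean level was 79 ± 4.2 CPM at 0 h and 26.5 ± 3.06 at 4 h. In HL it was 166 ± 43.1 CPM at 0 h and 19.2 ± 7.03 at 4 h. In HL the fall passed the test at every time, by 1.76 ± 0.21 at 1 h, 2.24 ± 0.21 at 2 h and 3.15 ± 0.23 at 4 h (adjusted p = 4.41e-06, 2.1e-07 and 3.81e-09, edgeR). In LL the log2 fold changes of ERF6 were -0.72 ± 0.21 at 1 h and -0.92 ± 0.21 at 2 h, under the 2-fold limit, and ERF6 fell by 1.58 ± 0.22 at 4 h (adjusted p = 2.4e-05). Without LL 2 h replicate 1 the value at LL 2 h was -1.12 and past both limits.

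ERF105, which takes part in the response to cold, had 46, 55 and 35 counts at LL 0 h and 8 to 18 in the 9 later LL libraries. In HL it had 80, 25 and 49 counts at 0 h and 10 to 29 in the 9 later libraries, and on the CPM scale the lowest 0 h library (18.3 CPM) was still above the highest later one (15.7 CPM). Its level was 29.1 ± 1.74 CPM at LL 0 h and 7.64 ± 1.01 at LL 4 h, and 30.6 ± 13.6 at HL 0 h and 7.44 ± 1.6 at HL 4 h. ERF105 fell by 1.57 ± 0.24, 2.03 ± 0.25 and 1.92 ± 0.24 at 1, 2 and 4 h of LL and by 1.33 ± 0.29, 1.66 ± 0.30 and 2.08 ± 0.32 in HL, with adjusted p of 0.00289 or less in edgeR. Without HL 0 h replicate 1 the change of ERF105 at HL 1 h was -0.92 (adjusted p = 0.0396), under the 2-fold limit.

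ERF1, which joins ethylene and jasmonate signals in defence, rose in both series. Its counts were 7, 3 and 5 at LL 0 h, 65, 24 and 38 at 1 h, 60, 40 and 43 at 2 h, then 27, 27 and 21 at 4 h. In HL they were 11, 9 and 8 at 0 h, 19, 59 and 57 at 1 h, 66, 50 and 22 at 2 h, then 16, 28 and 22 at 4 h. Every later library lay above all 3 libraries of 0 h in its series. The mean level of ERF1 was 3.33 ± 1.42 CPM at LL 0 h, 27.7 ± 5.56 at 1 h, 31.2 ± 8.9 at 2 h and 13.4 ± 1.87 at 4 h. In HL it was 5.8 ± 1.05 CPM at 0 h, 23.6 ± 11 at 1 h, 25.3 ± 12.4 at 2 h and 12.7 ± 3.66 at 4 h. ERF1 rose by 3.09 ± 0.35 at LL 1 h, 3.25 ± 0.35 at LL 2 h and 2.01 ± 0.38 at LL 4 h (adjusted p = 5.51e-06, 1.47e-06 and 0.000515, edgeR). In HL it rose by 2.03 ± 0.45 at 1 h and 2.08 ± 0.45 at 2 h (adjusted p = 0.00299 and 0.00171), and the value of 1.09 ± 0.49 at 4 h did not pass (adjusted p = 0.115). Between 2 and 4 h of LL the level of ERF1 fell by 1.23 ± 0.26 (adjusted p = 0.0143). That call was lost without LL 2 h replicate 1 (-0.99, adjusted p = 0.113), without LL 4 h replicate 3 (-1.12, adjusted p = 0.0869) and in the fit of all 24 libraries (-1.21, adjusted p = 0.0578).

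ERF5, the close relative of ERF6 with which it overlaps in defence and in growth under osmotic stress, was near the limit of detection. It had 1 to 19 counts per library and 10, 19 and 3 counts at LL 0 h. In HL its counts were 6, 1 and 3 at 0 h, 14, 12 and 9 at 1 h, 7, 5 and 4 at 2 h, then 4, 3 and 4 at 4 h. The libraries of HL 1 h lay above those of HL 0 h, and the log2 fold change of ERF5 there was 1.59 ± 0.50 (adjusted p = 0.0313). With DESeq2 the adjusted p was 0.103, and the call was also lost when HL 0 h replicate 2 or 3 or HL 1 h replicate 1 or 2 was left out (1.29 to 1.57, adjusted p from 0.0768 to 0.112). In LL the changes of ERF5 were 0.18 ± 0.47, 0.13 ± 0.47 and -0.98 ± 0.52, and none passed.

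ERF1A, ERF2 and ERF104 moved within about 2-fold. ERF1A and ERF2 are activators of GCC box genes. The level of ERF1A was 455, 346 and 376 CPM at LL 0 h, 670, 593 and 769 at 1 h, 504, 446 and 482 at 2 h, then 358, 424 and 374 at 4 h. In HL it was 535, 498 and 501 CPM at 0 h, 517, 589 and 643 at 1 h, 507, 475 and 399 at 2 h, then 348, 304 and 360 at 4 h. In LL the libraries of 1 h lay above those of 0 h, with a log2 fold change of 0.79 ± 0.14 (adjusted p = 0.000466), and at HL 4 h all 3 libraries lay below those of 0 h, with -0.64 ± 0.13 (adjusted p = 0.000766). Both values were under the 2-fold limit.

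ERF104, released from MPK6 upon ethylene signalling, had a like course. Its level was 161, 136 and 173 CPM at LL 0 h, 215, 268 and 308 at 1 h, 190, 214 and 174 at 2 h, then 139, 135 and 141 at 4 h. In HL it was 182, 238 and 218 CPM at 0 h, 341, 286 and 293 at 1 h, 251, 232 and 237 at 2 h, then 134, 125 and 168 at 4 h. At 1 h every library was above those of 0 h in both series, with log2 fold changes of 0.75 ± 0.15 in LL and 0.52 ± 0.14 in HL (adjusted p = 0.00133 and 0.016). At HL 4 h every library of ERF104 was below those of 0 h, with -0.62 ± 0.15 (adjusted p = 0.00353). From 2 to 4 h of HL its log2 fold change was -0.76 ± 0.15 (adjusted p = 0.00315), also under the 2-fold limit.

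ERF2 showed no change past the test in LL, where its values were 0.27 ± 0.18, -0.09 ± 0.18 and -0.43 ± 0.18 at 1, 2 and 4 h. In HL its level was 283, 289 and 332 CPM at 0 h, 163, 228 and 261 at 1 h, 170, 163 and 134 at 2 h, then 141, 165 and 147 at 4 h. All later HL libraries lay below those of 0 h. ERF2 fell by 1.04 ± 0.16 at HL 4 h (adjusted p = 5.14e-05), just past 2-fold, and its value of -0.99 ± 0.16 at HL 2 h (adjusted p = 0.000117) was just short of it. The call at HL 4 h was lost on the fold limit without HL 0 h replicate 3 (-0.97), without HL 4 h replicate 1 (-0.99) and in the fit of all 24 libraries (-0.999). The value of ERF2 at HL 2 h was called when HL 0 h replicate 1, HL 2 h replicate 1 or HL 2 h replicate 2 was left out (-1.01 to -1.06).

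In counts, 1 of the 9 genes rose and 3 fell by the test at LL 1 h, where 3.42% of all genes rose and 7.01% fell. For LL 2 h it was again 1 that rose and 3 that fell (4.34% and 8.15% of all genes), and for LL 4 h 1 that rose and 4 that fell (5.74% and 10.8%). In HL, 2 rose and 4 fell at 1 h (3.96% and 5.05% of all genes). For HL 2 h 1 rose and 4 fell (4.71% and 7.2%), and for HL 4 h 0 rose and 5 fell (7.51% and 8.17%). The libraries of LL 1 h lay above all of LL 0 h for 3 of the 9 genes (17.1% of all genes) and below for 4 (19.5%). For LL 2 h these were 2 genes above (18.2%) and 4 below (18.4%), and for LL 4 h 1 above (20.3%) and 4 below (21.3%). For HL 1 h they were 3 above (16.2%) and 5 below (17.5%), for HL 2 h 1 above (17.5%) and 5 below (18.4%), and for HL 4 h 1 above (19.1%) and 7 below (19%). The median log2 fold change of the 9 genes at 4 h was -0.98 in LL and -1.04 in HL, where the medians of all genes were -0.01 and 0.04. All these comparisons share the 0 h libraries of their series. Between successive times the counts were small. At 2 h over 1 h no gene was called in either series, where 0.165% of all genes were higher and 0.622% lower in LL, and 0.17% and 0.448% in HL. At an unadjusted p under 0.05 there were 2 of 9 in LL and 6 of 9 in HL, and DESeq2 also called 0. The share of all genes at that unadjusted limit was not computed, so such counts have no background. At 4 h over 2 h ERF1 in LL was the single call (0.503% of all genes higher and 0.677% lower). In HL there was none (1.42% higher and 0.761% lower). An unadjusted p under 0.05, again without a share of all genes, was found for 6 of 9 in LL and 4 of 9 in HL. DESeq2 called 1 in LL and 0 in HL.

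**Figure D2:**
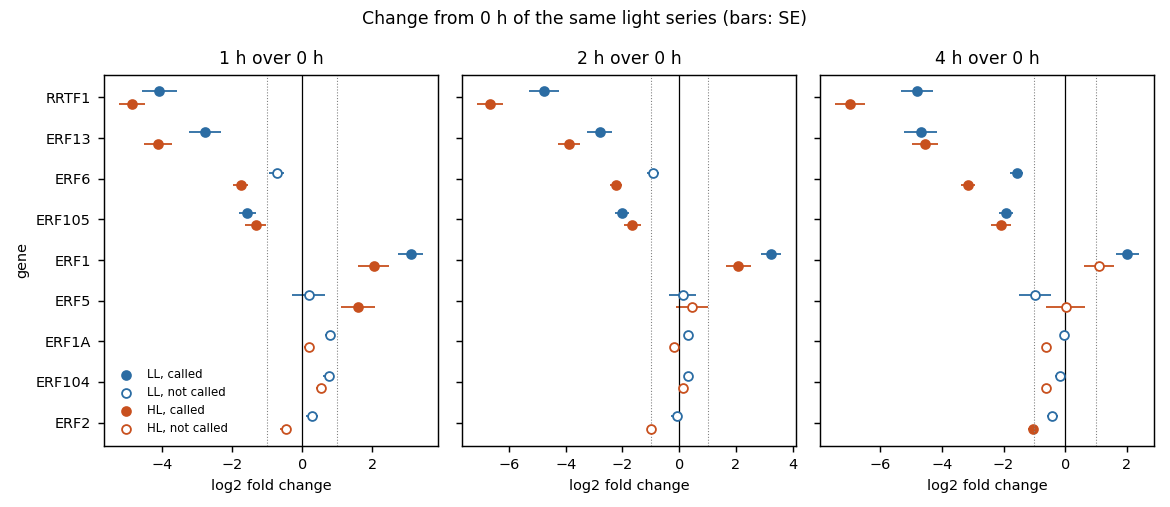
Log2 fold change of each gene at 1, 2 and 4 h over 0 h of its own light series, with bars for the SE, LL in blue and HL in orange, filled points for calls and dotted lines at 2-fold. RRTF1, ERF13 and ERF105 lie past 2-fold to the left in all 3 panels and both light levels, and ERF1 lies to the right.

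The neighbours on the chromosome had unlike values. At LL 1 h ERF6 had a log2 fold change of -0.72 where ERF1A had 0.79, and at HL 1 h ERF6 fell by 1.76 where ERF1A had 0.18. ERF2 and ERF5 had -0.48 and 1.59 at HL 1 h. Within group IXa ERF13 fell at LL 1 h by 2.77 and ERF1A was at 0.79, and within group IXb ERF105 fell by 1.57 and ERF104 was at 0.75. Of the G-box genes, RRTF1 fell by more than 4 on the log2 scale at LL 1 h, while ERF1A was at 0.79 and ERF2 at 0.27. These differences between genes were not tested.

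The light levels were compared at each time and as the difference of the changes from 0 h, in 1 fit of 24 libraries. At 0 h, before the LL or HL treatment, ERF6 was higher in the HL series than in the LL series by 1.07 ± 0.21 (adjusted p = 0.00278). RRTF1 was higher by 1.31 ± 0.30 (adjusted p = 0.00857) and ERF13 by 1.40 ± 0.32 (adjusted p = 0.00879). These 3 of 9 stand beside 0.348% of all genes called higher and 4.14% called lower, none of the latter being among the 9. The HL 0 h libraries of 6 of the 9 genes lay above all LL 0 h libraries, which 11.6% of all genes did. All 3 calls were lost without HL 0 h replicate 2, which had the highest counts of RRTF1 and ERF13, and the values were then 0.85 for ERF6 (adjusted p = 0.0384), 0.88 for RRTF1 (adjusted p = 0.142) and 1.05 for ERF13 (adjusted p = 0.112). ERF5 had -1.69 ± 0.55 at 0 h and missed the limit (adjusted p = 0.063). The shoot markers differed between the same libraries. Their summed level was 19981 to 21385 CPM at LL 0 h and 5702 to 13530 CPM at HL 0 h, RBCS1A was called lower in HL (-1.33, adjusted p = 0.0181), and neither RCA (0.18) nor CA1 (-0.54) was called. The root markers summed to 43.1 to 57.5 CPM at LL 0 h and 40.2 to 91.1 CPM at HL 0 h. The part of these differences in the ERF values was not tested.

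At 1, 2 and 4 h none of the 9 genes was called between HL and LL. The shares of all genes called higher and lower were 0.377% and 0.029% at 1 h. They were 1.68% and 1.27% at 2 h, against 2.64% and 0.271% at 4 h. At an unadjusted p under 0.05, for which no share of all genes was computed, there were 1, 3 and 0 of the 9 genes at these times. DESeq2 called 0. For ERF6, the HL over LL values were 0.04 (95% interval from -0.41 to 0.50) at 1 h, -0.20 (-0.67 to 0.27) at 2 h and -0.47 (-0.99 to 0.06) at 4 h. At 1 and 2 h these intervals leave out a 2-fold difference of ERF6 in either direction. At 4 h the lower limit lies too near 2-fold to leave out a 2-fold lower level in HL. For ERF1A the 3 intervals lay between -0.47 and 0.20, and for ERF104 between -0.25 and 0.60. For RRTF1, with its few counts, the interval at 4 h ran from -2.96 to 1.32, and for ERF13 from -0.09 to 3.28, so that differences of several fold were not detectable at this depth.

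**Figure D3:**
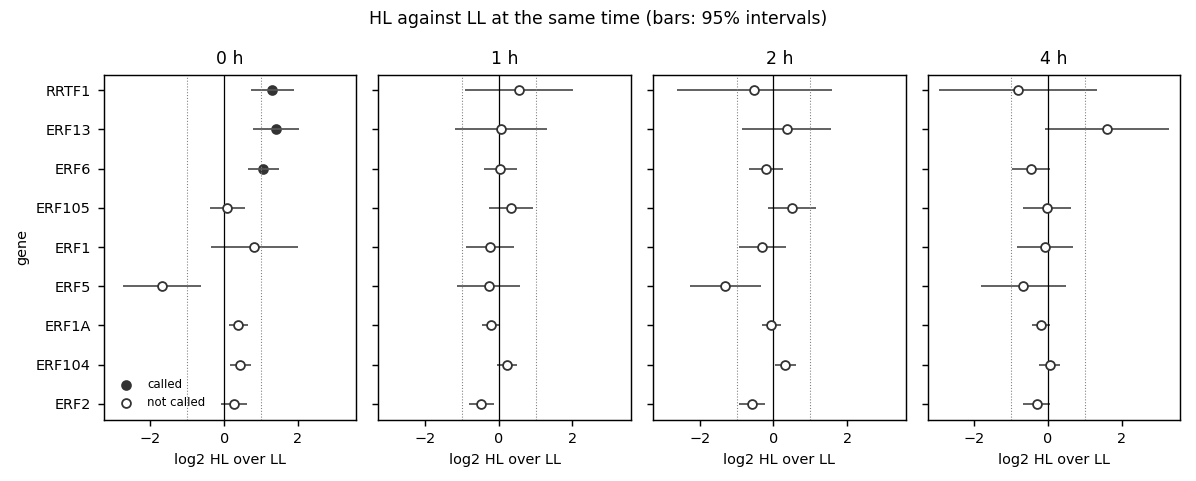
Log2 ratio of HL over LL for each gene at 0, 1, 2 and 4 h, with bars for 95% intervals, filled points for calls and dotted lines at 2-fold. The 3 calls (ERF6, RRTF1 and ERF13, from 1.07 to 1.40) are all at 0 h, and at the later times no gene was called.

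The change from 0 h differed between HL and LL for ERF6. The HL change minus the LL change was -1.03 ± 0.31 at 1 h (adjusted p = 0.122), -1.27 ± 0.32 at 2 h (adjusted p = 0.0402) and -1.53 ± 0.34 at 4 h (adjusted p = 0.00756), and in each it holds the 0 h difference of 1.07 between the series. The call at 4 h was kept in all 24 fits that left out 1 library, and the call at 2 h was lost in 11 of them, with values from -1.08 to -1.34 (adjusted p from 0.0515 to 0.149). The 11 libraries were all 3 of LL 0 h, all 3 of HL 2 h, replicates 1 and 3 of LL 2 h, replicates 1 and 2 of HL 0 h and replicate 2 of HL 1 h. Among all genes 0.879% were called higher and 0.116% lower at 2 h, and 2.42% higher and 0.502% lower at 4 h. At 1 h no member was called (0.696% of all genes higher and 0.0676% lower), and DESeq2 called 0. An unadjusted p under 0.05, for which no share of all genes was computed, was found for 3 of 9. For RRTF1 the difference at 4 h was -2.13 ± 1.17 (adjusted p = 0.356), and for ERF1A -0.57 ± 0.18 (adjusted p = 0.0746). For ERF13, ERF1 and ERF105 it was 0.19 ± 0.68, -0.90 ± 0.72 and -0.13 ± 0.41.

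Over the 8 groups ERF6 ran in the order HL 0 h, LL 0 h, HL 1 h, LL 1 h, LL 2 h, HL 2 h, LL 4 h and HL 4 h from high to low, with the libraries of the HL 1 h to HL 2 h groups overlapping in succession and no other neighbours overlapping. RRTF1 and ERF13 also had HL 0 h first and LL 0 h second, without overlap, and the later groups of RRTF1 overlapped from each to the next. ERF1 had LL 0 h lowest (3.33 CPM) and HL 0 h next (5.8 CPM), and the other 6 groups overlapped each with its neighbour. ERF1A and ERF2 were highest at LL 1 h and lowest at HL 4 h, with overlap between all neighbours in the order. ERF104 ran from 307 CPM at HL 1 h to 138 CPM at LL 4 h. ERF105 had both 0 h groups on top and overlapping, and ERF5 ran from 7.57 CPM at LL 1 h to 1.95 CPM at HL 0 h.

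The genes most like each member were found by Pearson's r of log2 CPM over the 24 libraries among 7359 other genes with a mean count of at least 10. ERF5, with a mean count of 7.96, was left out. The 24 libraries share their 8 groups, so r describes the course over the groups and has no p. RRTF1 was most like AT3G52800 (r = 0.976) and AOC3 (0.974), an enzyme of jasmonate synthesis. ERF13 was most like SRC2 (0.946) and AT3G52800 (0.937), and RRTF1 was the 12th most like it (0.927). ERF6 was most like CAF1a (0.952), a deadenylase of mRNA, and the factor WRKY40 (0.944), and ERF105 was most like GSL8 (0.934) and AT4G34150 (0.932). ERF1 was most like ABI1 (0.921), a phosphatase of abscisic acid signalling, and AT5G01210 (0.913), and its r with RRTF1 was -0.72. ERF104 was most like AT5G19120 (0.941) and AT2G33830 (0.923), with ERF1A at 0.798. ERF1A was most like PCR2 (0.911) and STY46 (0.897), and ERF2 was most like MC1 (0.834) and AT1G78830 (0.833).

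Other genes of the pathway were read at 4 h over 0 h in the same fits. Of 16 other group IX and X genes 10 were measured, 8 of them in both series, TDR1 in LL alone and ERF115 in HL alone, and the remaining 6 were not analysed here. At 4 h, 2 of 9 rose and 2 fell in LL, and 2 of 9 rose and 1 fell in HL, where 5.74% of all genes rose and 10.8% fell in LL, and 7.51% and 8.17% in HL. ORA59, which joins jasmonate and ethylene signals at defensin genes, rose by 1.56 ± 0.18 in LL and 1.18 ± 0.19 in HL (adjusted p = 3.31e-06 and 7.74e-05, edgeR). RAP2.6L rose by 1.54 ± 0.18 in LL and 1.02 ± 0.17 in HL, and the HL call was lost without HL 4 h replicate 3 (0.92). ABR1, a group X repressor of abscisic acid responses, fell by 3.69 ± 0.24 in LL and 4.16 ± 0.27 in HL (adjusted p = 2.86e-09 and 7.49e-10), from 437 to 42 and from 472 to 29 counts. ERF106 fell by 1.17 ± 0.34 in LL, and this call ended on leaving out replicate 2 of LL 0 h (-0.97) or replicate 2 or 3 of LL 4 h (-1.12 and -0.99). The median of the 8 genes measured in both series was -0.67 in LL and 0.11 in HL.

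Group VIII ERF proteins carry a repression motif and compete for GCC box genes. Of 8 measured, 2 rose and 1 fell at LL 4 h (5.74% and 10.8% of all genes), and 0 rose and 2 fell at HL 4 h (7.51% and 8.17%). ERF11 fell in both series, by 1.78 ± 0.23 in LL and 3.15 ± 0.26 in HL (adjusted p = 1.31e-05 and 1.43e-08). ERF4 fell by 1.22 ± 0.15 in HL. In LL ERF8 and ERF9 rose by 1.07 ± 0.20 and 1.03 ± 0.25, near the 2-fold limit, and both calls were lost without LL 4 h replicate 3 (0.93 and 0.86), ERF8 also without LL 0 h replicate 3 (0.98) and ERF9 without LL 0 h replicate 2 (0.74). ERF8 had -0.38 in HL. The HL change minus the LL change at 4 h, called lower in 0.502% of all genes, passed the test for 2 of the 8. It was -1.43 for ERF8 (adjusted p = 0.0045) and -1.34 for ERF11 (adjusted p = 0.0263), the latter no longer called when replicate 2 of LL 0 h, replicate 2 of LL 4 h or replicate 1 of HL 4 h was omitted (-1.09 to -1.28, adjusted p from 0.0613 to 0.103). The list median of the 4 h changes was -0.03 in LL and -0.70 in HL. Every difference of changes given for list genes holds the 0 h difference between the series. The list median of HL over LL was 0.50 at 0 h and -0.25 at 4 h. None of the 8 was called there at 0 h (0.348% of all genes higher and 4.14% lower) or at 4 h (2.64% and 0.271%).

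Of 4 measured genes of ethylene synthesis none was called at 4 h, with EFE, an ACC oxidase, at 0.62 ± 0.15 in LL and 0.35 ± 0.13 in HL. EFE had risen by 1.26 ± 0.15 at LL 1 h and 1.22 ± 0.13 at HL 1 h. In ethylene signalling 3 of 10 genes rose at LL 4 h (5.74% of all genes) and 1 at HL 4 h (7.51%), and none fell (10.8% and 8.17%). The receptor ETR2 rose by 1.80 ± 0.17 in LL and had 0.60 ± 0.20 in HL, and the difference of its changes was -1.17 (adjusted p = 0.00774). The receptor ERS2 rose by 1.25 ± 0.24 in LL. EIN2, the membrane protein that carries the signal to the nucleus, rose by 1.54 ± 0.14 in LL and 1.06 ± 0.15 in HL, the latter lost without HL 4 h replicate 3 (0.96). EIN3 and EIL1, which act on ERF1, were not called. At LL 1 h 5 of the 10 had risen (ETR2, ERS2, CTR1, EIN2 and EBF2), by 1.25 to 2.12, where 3.42% of all genes rose. At HL 1 h ETR2 and ERS2 had, by 1.29 and 1.22, where 3.96% rose.

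Of 5 measured MAP kinase genes none was called at LL 4 h (5.74% of all genes higher and 10.8% lower) and 3 fell at HL 4 h (8.17%). MPK3 fell by 1.89 ± 0.30, from 82 to 24 counts (adjusted p = 6.31e-05), MKK4 by 1.198 ± 0.19 and MKK5 by 1.10 ± 0.19. The difference of the changes passed the test for MKK5 (-1.196, adjusted p = 0.00774) and did not for MPK3 (-1.42, adjusted p = 0.129) or MKK4 (-0.56, adjusted p = 0.318). Among downstream genes, 3 of 9 measured rose and 1 fell at LL 4 h (5.74% and 10.8% of all genes), and 2 of 8 rose and 2 fell at HL 4 h (7.51% and 8.17%). OSM34, an osmotin, rose by 2.93 ± 0.23 in LL and 1.77 ± 0.17 in HL, and PR4, a hevein-like protein, by 2.50 ± 0.25 and 1.44 ± 0.24. The difference of the changes was -1.13 for OSM34 (adjusted p = 0.027), and this call was lost in 6 of 24 fits without 1 library, those without replicate 2 or 3 of LL 0 h or of LL 4 h, replicate 3 of HL 0 h or replicate 1 of HL 4 h (-0.96 to -1.11, adjusted p from 0.0599 to 0.085). Basic chitinase CHI-B rose by 1.80 ± 0.25 in LL and was at 0.87 ± 0.22 in HL. The defensin PDF1.2a was not called at 4 h over 0 h, with -0.04 ± 0.43 in LL and -0.73 ± 0.47 in HL. It was called lower at HL 2 h over 0 h (7.2% of all genes), and lower in HL than in LL at 4 h (0.271%). WRKY33 and MYB51, regulators of camalexin and indole glucosinolate synthesis, fell by 1.70 ± 0.20 and 1.30 ± 0.28 in HL. GA2OX6, a gibberellin-degrading enzyme, was called lower in LL on 1 count against 11, a ratio of 13.3 with an interval from 1.94 to 574, and the call was lost without replicate 1 or 3 of LL 0 h or of LL 4 h. ASA1 and YUC2, auxin synthesis genes on which RRTF1 acts, were not called at 4 h. YUC2 was called higher at HL 2 h over 0 h (4.71% of all genes), and ASA1 was called lower in HL than in LL at 2 h (1.27%). In all, 3 of 8 downstream genes were called higher and 3 lower at HL 2 h over 0 h. The calls of PDF1.2a, YUC2 and ASA1 were not checked with 1 library left out.

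**Figure D4:**
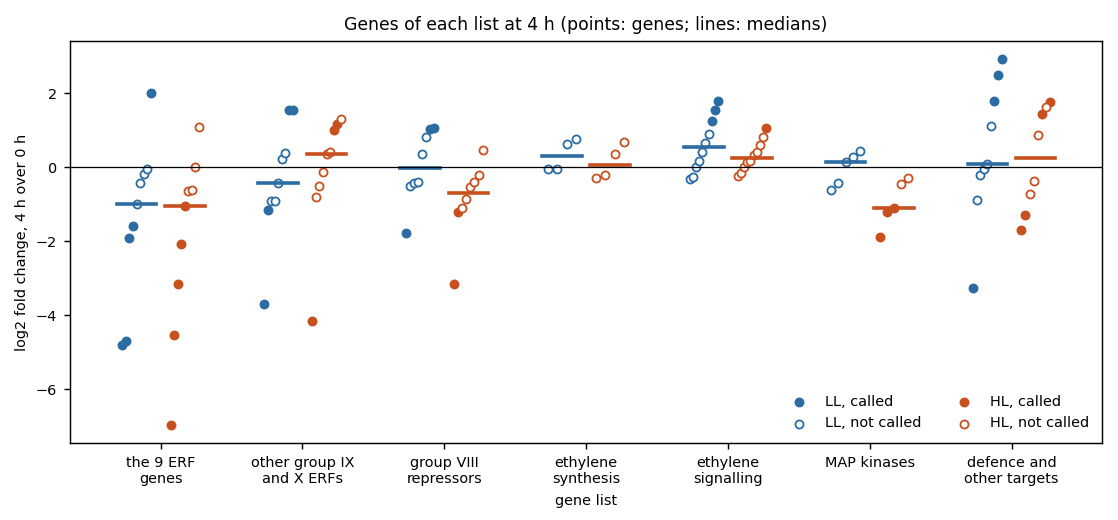
Log2 fold change at 4 h over 0 h of the genes of each list, with 1 point per gene, filled where called, short lines at the list medians, LL in blue and HL in orange. The 9 ERF genes spread from RRTF1 at -4.80 in LL and -6.97 in HL to ERF1 at 2.01 and 1.09, and 3 of the 5 MAP kinase genes were called lower in HL.

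The marker lists moved too, and shoot markers were already lower at 1 h. RCA and CA1 were called lower at LL 1 h (7.01% of all genes) and RCA at HL 1 h (5.05%). At 1 h the summed shoot level was 10335 to 11058 CPM in LL and 7008.5 to 10931 CPM in HL. No root marker was called at 1 h in either series. The shoot markers RBCS1A, RCA and CA1 fell by 1.10, 1.04 and 1.96 at LL 4 h, while none of them was called at HL 4 h (0.51, 0.50 and 0.61). The call of RCA ended without replicate 3 of LL 0 h (-0.92) and without replicate 2 of LL 4 h (-0.96). The HL change minus the LL change was called higher for all 3 shoot markers, where 2.42% of all genes were, with 1.64 for RBCS1A (adjusted p = 0.0466), 1.57 for RCA (adjusted p = 1.64e-05) and 2.603 for CA1 (adjusted p = 3.77e-06). The call of RBCS1A was lost in 16 of 24 fits without 1 library (1.198 to 1.77, adjusted p from 0.0531 to 0.113). Each difference of changes holds the 0 h difference between the series, where RBCS1A was called lower in HL. At 4 h itself RCA and CA1 were called higher in HL than in LL (2.64% of all genes), and RBCS1A was not. The summed shoot level was 8049 to 10735 CPM at LL 4 h and 11613 to 16184 CPM at HL 4 h. Of the root markers EXPA7 rose by 1.16 and TIP2;3 fell by 1.78 at HL 4 h. COBL9, the median of the 3 at -1.64, was not called. The call of TIP2;3 was lost without HL 0 h replicate 2 (-1.10) and that of EXPA7 without replicate 1 or 2 of HL 0 h or replicate 2 or 3 of HL 4 h (0.92 to 1.14). The root markers summed to 37.2 to 61.1 CPM at LL 4 h and 27.2 to 39.8 CPM at HL 4 h. Their part in the ERF values was not tested.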

How the data were processed

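MARS-seq libraries, which tag the 3' end of each transcript, were analysed from 24 samples in 8 groups of 3, grouped by the light and time in the labels. The authors demultiplexed with bcl2fastq, trimmed with cutadapt, mapped to Araport 11 with STAR 2.4.2a and counted with HTSeq-count, and kept genes that reached 5 reads in some sample. Raw counts per gene were deposited separately for LL, with 10930 genes, and for HL, with 11166 genes. Whether molecular identifiers were collapsed is not given in the sources used here. Alongside them the authors deposited normalized signal values from DESeq2 and regularised log2 values, neither of which was tested, and columns of the authors' own comparisons (fold changes and p-values), which were not used.

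Counts were tested with edgeR 4.0.16 (glmQLFit and glmQLFTest, TMM scaling, no further filter) in R 4.3.3, with 1 fit of 12 libraries per series for changes over time and 1 fit of 24 libraries over the 10349 genes in both tables for HL against LL. Genes were called at a p under 0.05, adjusted over all genes of the fit by Benjamini-Hochberg, with at least a 2-fold change. The SE is the log2 fold change divided by the root of F. The fit was tested on simulated data. Chi-square per degree of freedom between replicates of a group ran from 2.27 to 8.58, so replicates differed by more than counting error and no library was a copy of another. Alternatives were DESeq2 1.42.0, upper-quartile scaling, filterByExpr, a replicate block, all 24 libraries in 1 fit for the changes over time, no 2-fold limit, and each library left out in turn.

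The members and gene lists were chosen with earlier results of these data known. All 9 members are named with their values, and list genes are named where called at 4 h or where their role is described. All 9 passed the authors' filter, and filterByExpr drops ERF5 from the HL fit. Of 11747 identifiers, 11656 matched a locus tag of TAIR10.1. The deposited tables hold no coordinates, so loci and promoters were read from TAIR10.1 with the RefSeq annotation, and Araport 11 starts were not used here.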

Additional observations from a re-analysis of the deposited data

Results flagged for a closer look

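For ERF6 the change from 0 h differed between the light levels by the test of the difference itself. The HL change minus the LL change was -1.27 on the log2 scale at 2 h and -1.53 at 4 h, edgeR adjusted p = 0.0402 and 0.00756. The call at 2 h was lost in 11 of 24 fits without 1 library (adjusted p from 0.0515 to 0.149), and that at 4 h in none. Both values share the 0 h libraries of both series, where ERF6 was higher in HL by 1.07, a call that was lost without HL 0 h replicate 2 (0.85, adjusted p = 0.0384), and the HL over LL values at 2 and 4 h were -0.20 and -0.47.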

How the results depend on the processing

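Of 3289 values of single ERF genes under the alternatives other than no 2-fold limit, 3250 kept their side of the limits, 26 lost a call and 13 gained one. No called value changed sign, and 54 values that were not called did, in 31 of 153 pairs of gene and comparison with values from -0.65 to 0.38 over all libraries. With no 2-fold limit, the ERF genes higher at LL 1 h went from 1 to 3 and those lower at HL 4 h over 2 h from 0 to 3. These were the counts that moved from 0 or by over 1.5 times. Smaller gains were ERF6 lower at LL 1 h and LL 2 h and ERF104 higher at HL 1 h. ERF2 was gained as lower at HL 1 h and HL 2 h, and ERF1A and ERF104 were gained as lower at HL 4 h. The ERF genes higher at HL 1 h were 1 with DESeq2 and 1 with filterByExpr, which leaves ERF5 untested there. The ERF genes lower at LL 4 h over 2 h were 0 in the fit of all 24 libraries. With 1 library left out, the ERF genes called ran from 1 to 2 (higher, HL 1 h), from 0 to 3 (higher, HL over LL at 0 h), from 0 to 1 (lower, HL over LL at 0 h, HL over LL at 2 h, HL 4 h over 2 h, LL 4 h over 2 h and the difference of changes at 2 h), from 3 to 4 (lower, LL 2 h and HL 1 h) and from 4 to 5 (lower, HL 2 h and HL 4 h). The count of 1 lower in the difference at 4 h did not move. The 13 calls gained were ERF5 lower at 0 h in HL against LL on leaving out replicate 3 of LL 0 h, either of replicates 1 and 2 of LL 2 h or replicate 1 of HL 0 h (-1.66 to -2.31) and at 2 h without LL 2 h replicate 2 (-1.63), ERF6 at LL 2 h without LL 2 h replicate 1 (-1.12), ERF2 at HL 2 h on omitting replicate 1 of HL 0 h or either of replicates 1 and 2 of HL 2 h (-1.01 to -1.06), ERF2 in the difference at 2 h without LL 0 h replicate 1 (-1.05), and, at HL 4 h over 2 h, ERF1 without HL 2 h replicate 3 (-1.36) and ERF6 without HL 4 h replicate 2 or 3 (-1.12 and -1.03).

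Same-numbered libraries were not treated as paired in the main fits. The labels do not say whether they belong together, and the correlations below cannot exclude it. Over 84 same-number pairs the median correlation of deviations from the group means was 0.00178 (-0.317 to 0.404), 18 pairs were over 0.1 and 10 of 24 libraries correlated best with their own number. With a replicate block the ERF genes lower were 3, 3 and 4 at 1, 2 and 4 h of LL and 4, 4 and 5 in HL, and no count of ERF genes called moved.

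Counts over all genes moved by over 1.5 times in 29 of 34 cases with no 2-fold limit and in 0 under the other settings, and no scaling moved the median of all genes by over 0.1. With no such limit 1433 genes were higher and 1725 lower at LL 4 h (627 and 1177 with it), 1481 and 1529 at HL 4 h (839 and 912), and 146 and 513 in HL against LL at 0 h (36 and 428). With 1 library left out the last pair ran from 8 to 51 and from 146 to 491, and the genes lower in the difference of changes from 5 to 22 at 2 h (12 with all libraries) and from 29 to 65 at 4 h (52). ERF5, and RRTF1 and ERF13 after 0 h, rest on few counts, which limits the precision of their ratios.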
